A study of Mus musculus with 6 samples.

Results

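DNA replication genes encode the machinery that copies the genome in S phase, and 42 of them, of the 18194 genes named on the array, were followed here in embryonic kidneys that carry or lack the receptor gene Ret. The members were chosen by name: every probe set of the array whose only gene symbol in the platform annotation was one of the 42 was taken. The rule itself uses no measured value, but the list was drawn up with earlier results of these data known. They were found as 94 of the 45101 probe sets, and 82 of these were bright enough to be tested. All 42 genes kept at least 1 tested probe set, and each gene was represented by its brightest. Whole kidneys were taken from C57BL/6 mouse embryos at gestational day 12.5, and 6 samples were measured on 1 Affymetrix array each: 3 replicates of wild-type genotype and 3 lacking Ret. The labels differ on who carries the deficiency, since title and genotype place it in the kidneys and another field in the pregnant female, and the title was followed. The Ret allele, the litters and the number of embryos per sample were not given in the sources used here. Where replicates came from the same litter, p-values measure only the spread between these samples.

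Replication starts when the origin recognition complex, joined by Cdc6 and Cdt1, loads the Mcm2 to Mcm7 helicase ring on DNA before S phase, a step called licensing that geminin (Gmnn) blocks from being repeated. Cdc45 and the GINS proteins then bind the ring and switch the helicase on, with the help of Mcm10. The RPA proteins coat the unwound strands, primase and polymerase alpha lay down primers, the RFC proteins load the sliding clamp Pcna, polymerases delta and epsilon extend the strands, and Fen1 and Lig1 finish the lagging strand. Ribonucleotide reductase, thymidylate synthase and thymidine kinase supply the nucleotides. Many of these genes are textbook targets of the E2F transcription factors, which are active at the entry to S phase. In the developing kidney at this stage the ureteric bud branches under GDNF and Ret while the surrounding progenitors proliferate.

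A feature that the choice by name did not use, and that most members with a promoter sequence carried, is the E2F-type word. RefSeq promoter windows (GRCm38.p6, 250 bases before to 50 after each start) were matched by symbol to 34 of the 42 members. The words TTGGCGC and TTCCCGC and TTCGCGC and TTGCCGC, which can overlap one another, were searched on both strands. At least 1 of them stood in a window of 22 of these 34 genes (64.7%), against 10.9% of the 27025 genes with a window, and, counted by window, in 58.5% of the members' 41 windows against 9.57% of all 32851. None stood in the windows of the other 12, among them Mcm2, Mcm10, Orc2, Pcna, Tyms and Tk1. The share was 19 of 35 (54.3%) among other replication genes, 8 of 20 (40.0%) among regulators of the entry to S phase and 5 of 27 (18.5%) among mitotic genes, a list of genes of cell division. The word is therefore not particular to the 42. The word CCAAT stood in 64.7% of the members with a window, in 77.8% of the mitotic genes and in 41.1% of all genes. The words TTTGAA and TTCGAA, the form of the cell cycle homology region that marks promoters of mitotic genes, stood in 6 of 34 members (17.6%), in 21 of 27 mitotic genes (77.8%) and in 21.7% of all genes. A match is a description of the letters in the window and not a bound site. The 250 bases upstream of 4 members are shown 5' to 3' on the gene's strand, with the E2F-type words in capitals. Cdc6 and Mcm10 are shown because they had the smallest p-values of the comparison below, and Mcm6 and Pola1 because several words lie close together there.
Cdc6 (chr11:98907901-98908150, + strand): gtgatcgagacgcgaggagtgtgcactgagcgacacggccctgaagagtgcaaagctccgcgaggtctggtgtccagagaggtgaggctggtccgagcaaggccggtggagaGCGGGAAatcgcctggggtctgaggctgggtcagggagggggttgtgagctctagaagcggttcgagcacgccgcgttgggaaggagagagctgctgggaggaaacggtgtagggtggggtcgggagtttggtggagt
Mcm10 (chr2:5012792-5013041, - strand): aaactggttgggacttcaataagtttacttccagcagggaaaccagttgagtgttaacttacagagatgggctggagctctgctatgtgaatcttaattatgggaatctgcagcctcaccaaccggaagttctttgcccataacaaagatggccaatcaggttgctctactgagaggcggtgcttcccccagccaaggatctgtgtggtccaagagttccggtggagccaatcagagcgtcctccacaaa
Mcm6 (chr1:128359706-128359955, - strand): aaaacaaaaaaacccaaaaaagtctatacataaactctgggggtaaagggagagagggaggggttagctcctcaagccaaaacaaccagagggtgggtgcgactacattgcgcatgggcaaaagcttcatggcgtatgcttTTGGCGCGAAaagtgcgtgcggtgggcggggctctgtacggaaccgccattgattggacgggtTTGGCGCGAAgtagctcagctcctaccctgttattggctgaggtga
Pola1 (chrX:93632156-93632405, - strand): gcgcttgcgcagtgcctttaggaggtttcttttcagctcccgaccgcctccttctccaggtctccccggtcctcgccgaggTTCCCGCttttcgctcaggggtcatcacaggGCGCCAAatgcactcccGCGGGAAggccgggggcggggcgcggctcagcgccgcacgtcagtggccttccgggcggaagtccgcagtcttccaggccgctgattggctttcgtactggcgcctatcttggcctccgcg
In Mcm6 the words overlapped in pairs, at 109 to 100 and at 46 to 37 bases before the start. Pola1 held 3 separate words and Cdc6 held 1, at 138 to 132 bases before its start. The upstream 250 bases of Mcm10 held none of the 4 words, which says only that these letters are not in that stretch.

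The arrays bear on the results in a few ways. Ret read 10193 to 13315 in wild-type and 93.3 to 479.8 in Ret-deficient kidneys on its brighter probe set, which goes with the labels. All 6 listed markers of nephron progenitors, the cells that form the nephrons, were tested. Their summed signal was 19329 to 34026 in wild-type and 24019 to 32673 in Ret-deficient kidneys, with single markers varying more: Osr1 read 938.9 in Ret-deficient replicate 3 against 1836 to 2687 in wild-type, and Crym 2240 to 10337 over the 6 arrays. Wild-type replicate 1 stood apart in the 3' to 5' signal ratio of the beta-actin control probe sets, a gauge of RNA length, with 10.7 against 3.88 to 5.21 on the other 5 arrays, and in that of Gapdh, with 4.91 against 1.86 to 2.31. Ret-deficient replicate 1 had a summed signal of 7397 over 10 markers of the ureteric epithelium, 3 of them not above the brightest bacterial control, against 49120 and 61538 in the other Ret-deficient and 70213 to 79368 in the wild-type kidneys. In Ret-deficient replicate 3 all 6 tested macrophage markers, of 8 listed, lay above the highest wild-type array, and none of the 6 was at 0 on any array. Their summed signal was 32119 there, against 8480 and 15351 in the other Ret-deficient and 8345 to 12642 in the wild-type kidneys. The 5 stroma markers summed to 59112 in that replicate, against 39306 to 41169 in wild-type, with 3 of the 5 above the wild-type range. In Ret-deficient replicates 1 and 2 they summed to 43893 and 39954, with 2 of the 5 above that range in each. Foxd1 and Dcn lay above it in all 3 Ret-deficient kidneys, while the differences of 2 of the 5 were negative. The 5 endothelial markers summed to 10034 in Ret-deficient replicate 3, against 10915 to 22451 in wild-type, with 3 of the 5 below the range. Pecam1 and Cdh5 lay inside it, and their differences between the groups were positive, at 0.63 and 0.55. In Ret-deficient replicate 2, 5 of the 6 tested markers of red blood cells, of 7 listed, lay above the highest wild-type array. They summed to 233212 there, against 165986 to 200671 in wild-type. The 3 tested markers of neural crest and neurons, of 5 listed, summed to 2760 to 5110 in Ret-deficient and 7301 to 9360 in wild-type kidneys. The difference was positive for 1 of these 3. In RNA from whole kidneys, fewer cells of a type and less RNA per cell cannot be told apart.

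No DNA replication gene differed past the threshold between Ret-deficient and wild-type kidneys, and most differences were small. In limma, 0 of 42 members passed an adjusted p of 0.05 (background 0% of 11581 genes), with adjusted p from 0.867 to 0.999. Ret itself, with a difference of -5.43, did not pass either: its adjusted p in limma was 0.510, the smallest of all genes. A count of 0 at this threshold therefore cannot tell changed from unchanged members. At an unadjusted p under 0.05 there were 2 members, Cdc6 and Mcm10, both lower in Ret-deficient kidneys; this is 4.76% of the members, where 2.52% of all genes were lower at that threshold, and no member was higher, where 3.03% of all genes were. The groups did not overlap for 4 members, Cdc6, Pola2, Orc2 and Orc5, all lower, or 9.52% of members against a background of 5.73%, and for 0 members in the other direction against 6.02%. Neither share is read as a result about the members. Leaving out an array changed both counts. That at an unadjusted p under 0.05 became 4 when Ret-deficient replicate 1 was left out, and 1 when wild-type replicate 2 or either of the other Ret-deficient arrays was. Of all tested probe sets, 2.87% were lower at that threshold without Ret-deficient replicate 1, 2.30% without replicate 2 and 6.15% without replicate 3. Without wild-type replicate 2 it was 1.87%. The count without overlap, which fewer arrays make easier to reach, became 12 when Ret-deficient replicate 2 was left out, 11 when replicate 1 of that genotype was, and 9 when wild-type replicate 3 was. The share of all genes without overlap was not taken with an array left out, so these counts have no background here. The fitted difference (Ret-deficient minus wild-type, of log2(signal + 16)) was under 20 percent either way for 36 members, or 85.7%, against 68.6% of all genes. Its 95% interval lay within 2-fold either way for 38 members, or 90.5%, against 76.5% of all genes. The median SE of a member was 0.18 on the log2 scale.

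**Figure D1:**
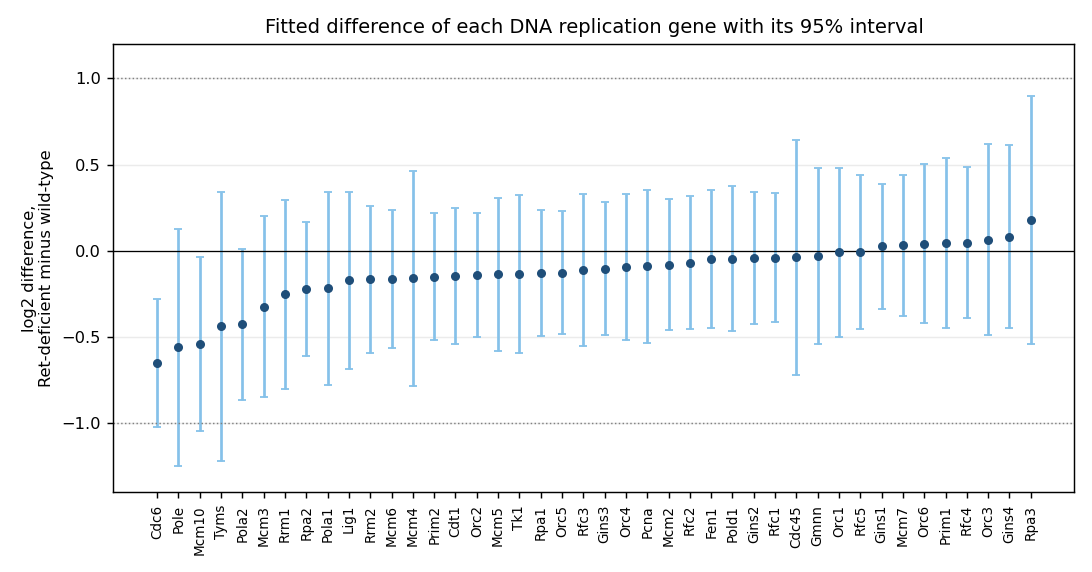
The fitted log2 difference of each of the 42 DNA replication genes (Ret-deficient minus wild-type, points) with its 95% interval from limma (bars), ordered by size; dotted lines mark 2-fold either way. Only the intervals of Cdc6 and Mcm10 leave out 0, and 34 of the 42 points lie below it.

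The direction was more one-sided than the sizes. Of the 42 members 34 had a negative difference, or 81.0%, against 49.5% of all genes, and 8 a positive one, against 50.5% of all genes, with a median of -0.11 where the median of all genes was 0.003. Counted by probe set, 66 of the 82 tested were negative, where 51.7% of all tested probe sets were negative and 48.3% positive. Of the 82, 4 were lower at an unadjusted p under 0.05 (background 2.74%) and 0 higher (2.63%), and 8 were lower without overlap (5.54%) and 0 higher (5.17%). The lean was largest in Ret-deficient replicate 3. As a difference from the mean of the wild-type arrays, the median over the 42 genes was -0.01 in Ret-deficient replicate 1, -0.04 in replicate 2 and -0.20 in replicate 3, and -0.02, 0.001 and 0.02 in wild-type replicates 1, 2 and 3. In Ret-deficient replicate 3, 30 of 42 genes (71.4%) read lower than any wild-type array, against 25.3% of all genes, and 0 lay above the highest, against 27.8%. In replicates 1 and 2 it was 13 members each (31.0%), against 28.2% and 27.9% of all genes, with 8 and 5 members above the highest wild-type array, against 29.1% and 28.2%. Without replicate 3 the count of negative members was 24 of 42 (57.1%) and the median -0.05. Replicate 3 is the kidney with the highest summed macrophage and stroma markers and the lowest summed endothelial markers, and the part of these cells in its lower replication signals was not tested. In replicate 1, the kidney whose ureteric epithelium markers were lowest, the summed signal of the replication genes was 695763. This lay within the 686560 to 713819 of the wild-type kidneys, against 660290 and 590661 in replicates 2 and 3. The brightest probe sets weigh most in such a sum. Any link between the epithelium and the replication genes was not tested. Centring each array on its median moved the median of all tested probe sets from -0.01 to 0.10. Then 20 of 42 members (47.6%) were negative, where 34.4% of the tested probe sets were. Centring shifted the difference of every probe set by the same amount. The members' median relative to that of all tested probe sets, -0.10, therefore could not change and is no check of the lean.

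**Figure D2:**
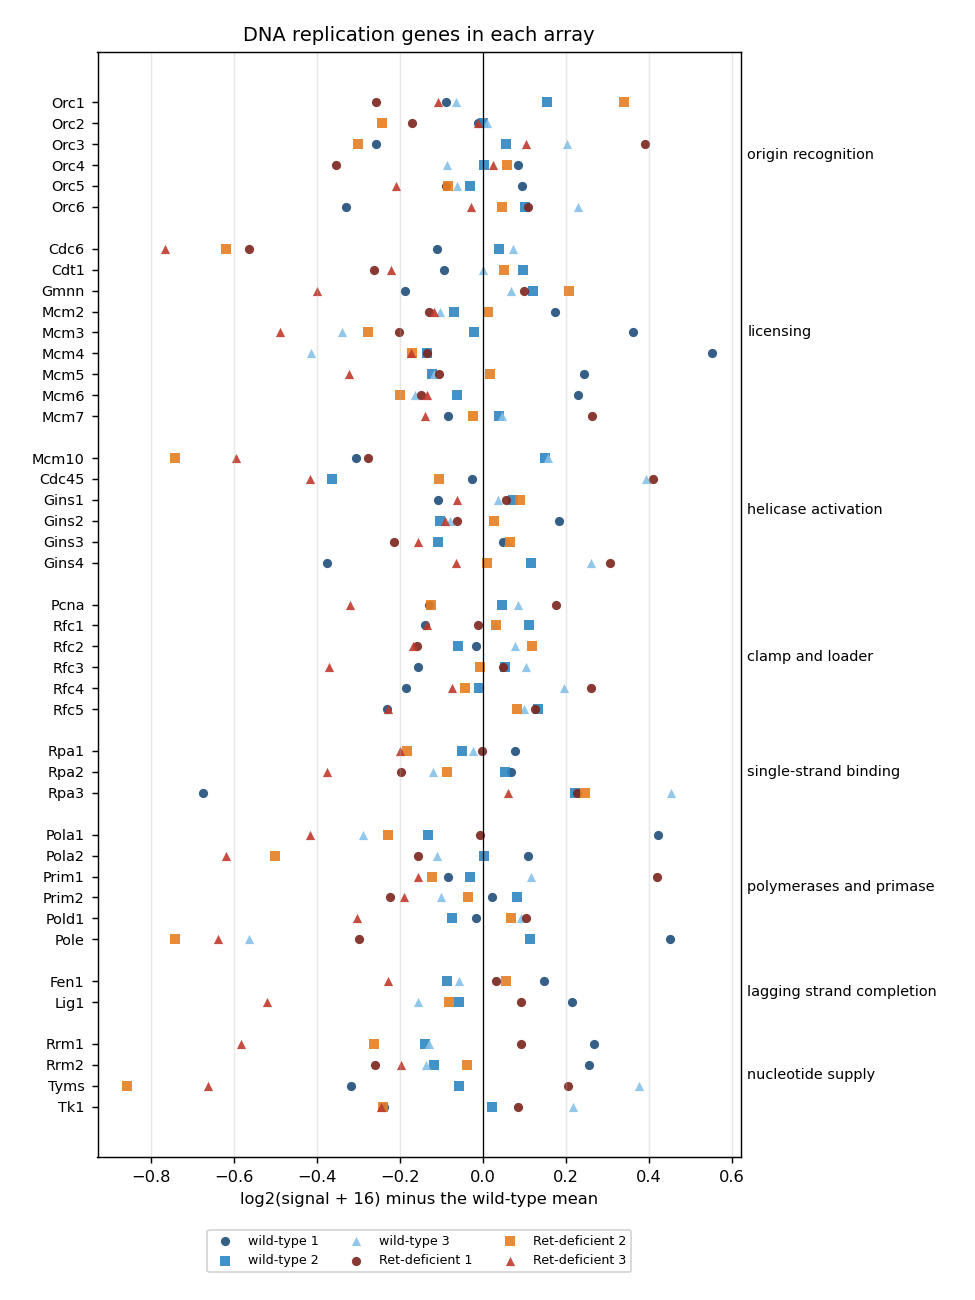
Each point is 1 array: the log2(signal + 16) of a gene's brightest probe set minus its wild-type mean, for the 42 DNA replication genes grouped by role (rows), with wild-type arrays in blue and Ret-deficient arrays in red and orange. Ret-deficient replicate 3 (red triangles) is the lowest of the 6 arrays for 20 genes (47.6%, against 16.8% of all genes), and wild-type replicate 1 (dark blue circles) is the highest for 17 (40.5%, against 24.4% of all genes) and the lowest for 7.

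The origin recognition genes, whose products mark the sites where replication can start, had small differences between the groups. Of the 6, 4 were negative, with a median of -0.05 and a range of -0.14 to 0.06. Leaving out 1 array moved this median to -0.12 (Ret-deficient replicate 2), -0.02 (Ret-deficient replicate 3), -0.01 (wild-type replicate 2) or -0.09 (wild-type replicate 3). Orc2 had the smallest p in this group. Its signal was 9157, 9232 and 9294 in the wild-type arrays and 8195, 7791 and 9157 in the Ret-deficient arrays. The groups met almost exactly, at 9157.4 and 9157.2, and the difference was -0.14 (SE 0.15, unadjusted p = 0.381 and adjusted p = 0.959 in limma). Its dimmer probe sets gave -0.38 and 0.06. Orc5 read 3902, 3573 and 3498 against 3435, 3446 and 3156, so its groups did not overlap although the difference was as small, at -0.13. Orc6, the brightest probe set of the group, read 7898, 10648 and 11634 in wild-type and 10706, 10246 and 9731 in Ret-deficient kidneys, with all Ret-deficient values inside the wild-type range. Orc1, the largest subunit, read 1311 to 1992 in Ret-deficient and 1476 to 1749 in wild-type kidneys.

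Among the licensing genes Cdc6 stood out. It encodes the ATPase that, with Cdt1, brings the helicase ring to the origin complex. Cdc6 read 8825, 9780 and 10022 in the wild-type arrays and 6443, 6201 and 5593 in the Ret-deficient arrays. Every Ret-deficient kidney was below every wild-type kidney, including replicate 1, where 13 of the 42 members lay below the wild-type range. The means were 9542 ± 633 and 6079 ± 438 (SD, n = 3 per group), a log2 difference of -0.65 (SE 0.16, 95% interval -1.02 to -0.28), or 1.57-fold lower. The unadjusted p was 0.00439 and the adjusted p 0.867 in limma, and a two-sided exact permutation over the arrays gave p = 0.1, the smallest that 3 against 3 arrays allow. With 1 array left out its difference ranged from -0.70 to -0.59 and its adjusted p from 0.441 to 0.998. Cdc6 had a single tested probe set, so no other probe set checks it.

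Cdt1, its partner in loading, did not share that size of difference. It read 32613, 37220 and 34829 in wild-type and 29018, 36060 and 29857 in Ret-deficient kidneys, and its groups overlapped through Ret-deficient replicate 2. Its 2 tested probe sets gave -0.15 and -0.12. Gmnn, the inhibitor of Cdt1, read 8949 to 11081 in wild-type kidneys and 10921, 11768 and 7714 in Ret-deficient kidneys, low in replicate 3 alone, with a difference of -0.03.

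The 6 genes of the helicase ring, Mcm2 to Mcm7, had differences from -0.32 (Mcm3) to 0.03 (Mcm7), with a median of -0.15 and none past an unadjusted p of 0.05. This median depended on wild-type replicate 1, in which 5 of the 6 read highest of all arrays, against 24.4% of all genes. Mcm4 read 31883 in that array and 19797 and 16309 in the other wild-type arrays, against 19815, 19306 and 19299 in Ret-deficient kidneys. All Ret-deficient values of this brightest probe set lay within the wild-type range. The other tested probe set of Mcm4 gave -0.24. There Ret-deficient replicate 3 read 14681, below the wild-type range of 17085 to 28196. Without wild-type replicate 1 the median of the 6 genes was -0.01. That array also had the highest 3' to 5' ratios, whose part in these values was not tested. Mcm3 had 5 tested probe sets, all negative, from -0.56 to -0.01, and the groups did not overlap on 1 of them (8672 to 11358 against 7138 to 8550, difference -0.35, SE 0.18, adjusted p = 0.937 in limma). Mcm7 was the member of the ring with a positive difference on its brightest probe set. That probe set read 28129 to 30751 in wild-type kidneys and 35769, 29328 and 27040 in Ret-deficient kidneys. Of the 4 tested probe sets of Mcm7, however, 3 were negative, the lowest at -0.15.

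Among the genes of helicase activation Mcm10, which encodes a factor needed for the loaded helicase to start unwinding, had the largest difference. Its brightest probe set read 8866, 12179 and 12241 in the wild-type arrays and 9054, 6555 and 7253 in the Ret-deficient arrays. The groups overlapped there through wild-type replicate 1 and Ret-deficient replicate 1. The means were 11095 ± 1931 and 7621 ± 1289 (SD, n = 3 per group) and the difference -0.54 (SE 0.21, unadjusted p = 0.0397, adjusted p = 0.921 in limma). A second probe set read 5721, 6897 and 5917 against 4529, 3794 and 3849, with no overlap. Its difference was -0.60 (SE 0.17, unadjusted p = 0.00905, adjusted p = 0.867 in limma), or 1.52-fold lower. The third and dimmest read 357.5 to 735.8 against 395.0 to 611.6, a difference of -0.15 (SE 0.31). The difference of the brightest probe set ranged from -0.69 without wild-type replicate 1 to -0.44 without Ret-deficient replicate 2.

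The other activation genes had smaller differences on their brightest probe sets. For the 4 GINS genes, whose products form a complex on the helicase, these ran from -0.10 to 0.08. A dimmer probe set of Gins3 gave -0.31 (SE 0.18), and those of Gins1 and Gins2 gave -0.09 and 0.02. Gins1, the brightest of them, read 17716, 20085 and 19572 in wild-type and 19842, 20310 and 18282 in Ret-deficient kidneys, with a 95% interval of -0.33 to 0.39. Gins4 read 10460, 14729 and 16275 against 16810, 13671 and 12976. Cdc45, which ties the GINS complex to the helicase ring, read 2024 to 3429 in wild-type and 1951 to 3471 in Ret-deficient kidneys. The ranges were nearly the same, and the difference was -0.04 (SE 0.29), with a wide 95% interval of -0.72 to 0.64. Mcm10 and these partners in the same step thus had unlike values, though the difference between them was not tested.

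**Figure D3:**
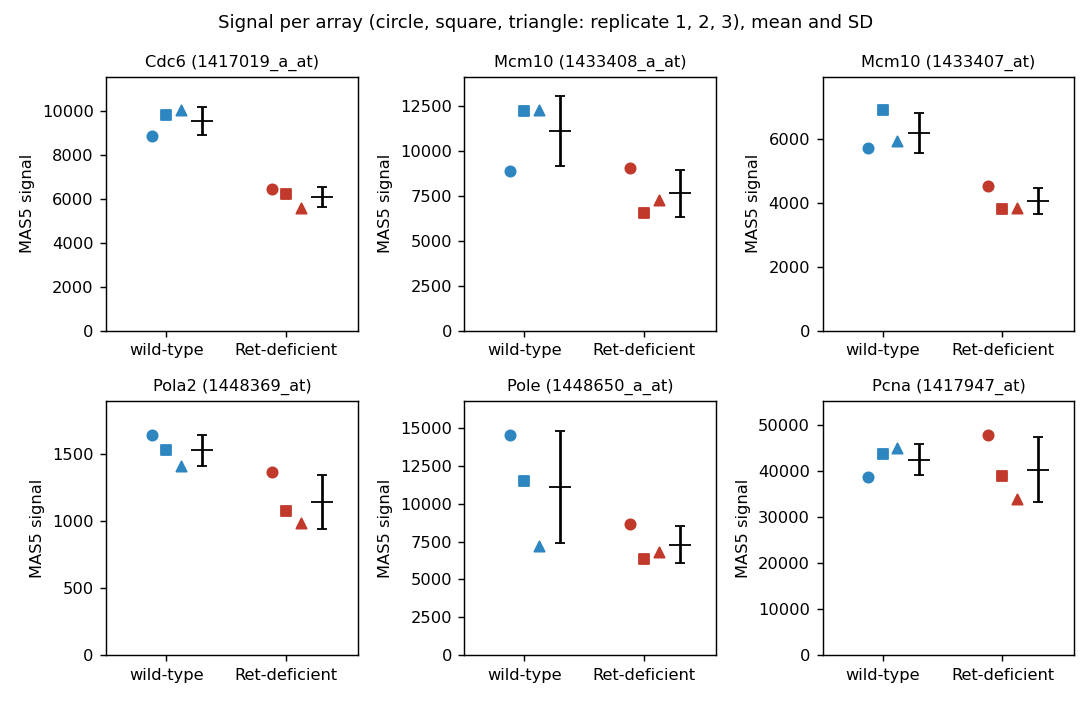
MAS5 signal of Cdc6, of the 2 brighter Mcm10 probe sets, of Pola2, Pole and Pcna in each array, with circles, squares and triangles for replicates 1, 2 and 3 and the mean ± SD beside each group (n = 3). The groups do not overlap for Cdc6, for the second Mcm10 probe set and for Pola2, and they overlap for the others.

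The genes of the sliding clamp and its loader had small differences between the groups on their brightest probe sets. All 6 differed by under 10 percent, against 43.9% of all genes, with a median of -0.05. The direction rested on Ret-deficient replicate 3: without it the median was 0.02 and 1 of 6 was negative. The median was -0.12 without wild-type replicate 1, and -0.03 with either of the other wild-type arrays left out. Pcna, the clamp that holds polymerases on DNA and a common marker of dividing cells, read 38683, 43647 and 44890 in wild-type and 47839, 38788 and 33883 in Ret-deficient kidneys. The highest and the lowest of these values were both in Ret-deficient kidneys, replicates 1 and 3, and the difference was -0.09 (SE 0.19, adjusted p = 0.982 in limma). Rfc3 had the smallest p of the loader genes. It read 5157, 5973 and 6184 against 5952, 5722 and 4441, a difference of -0.11 (SE 0.18), and only replicate 3 lay below the wild-type range. A dimmer Rfc3 probe set gave 0.18. The differences of the 5 loader genes Rfc1 to Rfc5 ran from -0.11 to 0.05.

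The genes for the single-strand binding protein RPA gave Rpa1 at 46693, 42713 and 43501 in wild-type and 44205, 39009 and 38553 in Ret-deficient kidneys. Replicates 2 and 3 were below the wild-type range and replicate 1 was inside it, and the difference was -0.13 (SE 0.15). Rpa2 read 8857, 8777 and 7772 against 7365, 7954 and 6510, a difference of -0.22 (SE 0.16, adjusted p = 0.951 in limma), and its other tested probe set gave -0.25. Rpa3 had a positive difference of 0.18 (SE 0.30), the highest of all 42 members, with a low value of 6072 in wild-type replicate 1 against 10119 to 13287 on the other 5 arrays.

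The polymerase and primase genes were low in Ret-deficient replicate 3, where all 6 lay below the wild-type range, against 2 in replicate 1 and 3 in replicate 2. Of all genes 25.3%, 28.2% and 27.9% did so in replicates 3, 1 and 2. The median difference of the 6 was -0.18, and -0.12 without Ret-deficient replicate 3. It was -0.10 without wild-type replicate 1 and -0.28 when the third wild-type array was left out. Pola2, the accessory subunit of polymerase alpha, read 1646, 1530 and 1412 in wild-type and 1368, 1074 and 988 in Ret-deficient kidneys. Its groups did not overlap, and the difference was -0.43 (SE 0.18, unadjusted p = 0.0548, adjusted p = 0.923 in limma), or 1.34-fold lower. Pola1, the catalytic subunit of the same polymerase, read 4460 to 7319 against 4082 to 5428, with overlap and a difference of -0.22. Pole, the catalytic subunit of the leading-strand polymerase, had a difference of -0.56 (SE 0.29, adjusted p = 0.937 in limma) but a wide wild-type spread. It read 14579, 11530 and 7197 in wild-type and 8662, 6364 and 6836 in Ret-deficient kidneys, and leaving out wild-type replicate 1 gave -0.33, while leaving out the third wild-type array gave -0.84. Prim1, the catalytic primase subunit, read 27779 to 31941 in wild-type kidneys and 39431, 27066 and 26415 in Ret-deficient kidneys, highest in replicate 1.

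For Pold1 and Fen1 the probe sets gave unlike answers. Pold1, the catalytic subunit of polymerase delta, read 33147, 31808 and 35737 against 35994, 35136 and 27154 on its brightest probe set, with a difference of -0.04. Its dimmer probe set read 2416, 2433 and 2793 against 2289, 1803 and 1829, without overlap, and gave -0.37 (SE 0.17, adjusted p = 0.928 in limma). Fen1, the nuclease that trims the flaps of lagging-strand fragments, read 47214, 40171 and 40955 against 43570, 44354 and 36377 on its brightest probe set, a difference of -0.05. The dimmer probe set read 7338, 7332 and 7111 against 6625, 4909 and 3759, without overlap, and gave -0.55 (SE 0.23, unadjusted p = 0.0498, adjusted p = 0.921 in limma). The brightest probe sets of Pold1 and Fen1 carry the suffix _x_at, by which the manufacturer marks probes that can also match other transcripts. In all, 7 of the 42 representative probe sets carry it, among them those of Mcm4, Mcm5 and Mcm6. Lig1, which seals those fragments, read 13847, 11460 and 10711 against 12709, 11280 and 8316, a difference of -0.17 (SE 0.22), with only replicate 3 below the wild-type range. Over all members, 26 had several tested probe sets. For 14 of these all were negative, for 12 the signs were mixed and for 0 all were positive.

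The genes of nucleotide supply were all 4 negative, with a median of -0.21. It was -0.12 when Ret-deficient replicate 3 was left out and -0.33 when Ret-deficient replicate 1 was. All 4 lay below the wild-type range in Ret-deficient replicate 3, 3 in replicate 2 and 1 in replicate 1. Of all genes 25.3%, 27.9% and 28.2% did so in replicates 3, 2 and 1. Tyms, which encodes thymidylate synthase, read 1607, 1929 and 2612 in wild-type and 2318, 1100 and 1263 in Ret-deficient kidneys. Replicate 1 lay inside the wild-type range and the others below it, and the difference was -0.44 (SE 0.33, adjusted p = 0.951 in limma). It was -0.76 without Ret-deficient replicate 1, -0.23 without replicate 2 and -0.25 without the third wild-type array. Rrm2, the regulated subunit of ribonucleotide reductase, read 46770, 36091 and 35589 against 32691, 38151 and 34149 on its brightest probe set, a difference of -0.17 (SE 0.18), and its other probe sets gave -0.28 and -0.01. Rrm1, the large subunit of the same enzyme, read 12401 to 16454 against 9104 to 14561. Tk1, thymidine kinase, read 7836, 9400 and 10760 against 9807, 7830 and 7804. Ret-deficient replicates 2 and 3 thus lay only just below wild-type replicate 1, the lowest wild-type array for this gene.

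A further 39 replication genes outside the 42, from a list of 42 chosen by their roles, gave a similar picture. Of these 31 were negative, or 79.5% against 49.5% of all genes, with a median of -0.11. None passed an adjusted p of 0.05. At an unadjusted p under 0.05 there was 1, which was lower, or 2.56% against 2.52% of all genes. That gene was Clspn, which encodes claspin, the adaptor that couples the replication fork to the checkpoint kinase. It read 17121, 15902 and 15505 in wild-type and 11703, 10118 and 11632 in Ret-deficient kidneys, without overlap, a difference of -0.54 (SE 0.15, unadjusted p = 0.0108, adjusted p = 0.867 in limma). The helicase-nuclease gene Dna2 and the polymerase delta subunit gene Pold4, next by p, had -0.33 and 0.47. Of 28 regulators of the entry to S phase 19 were negative (67.9%, against 49.5% of all genes), with a median of -0.12. That median was -0.03 when Ret-deficient replicate 3 was left out and -0.07 when wild-type replicate 3 was. At an unadjusted p under 0.05 there were 0 of the 28, where 2.52% of all genes were lower and 3.03% higher. Those with the smallest p were Fbxo5, an inhibitor of the anaphase-promoting complex (-0.33), the kinase gene Cdk6 (-0.46) and the repressor gene E2f7 (-0.37).

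Of the 30 tested mitotic genes 28 were negative (93.3%, against 49.5% of all genes), with a median of -0.13. In limma 0 passed an adjusted p of 0.05 and 1 had an unadjusted p under 0.05 (Ect2, a regulator of cell division, -0.48). That is 3.33% of the list, where 2.52% of all genes were lower at that threshold. The median was -0.27 when Ret-deficient replicate 1 was left out and -0.08 when Ret-deficient replicate 3 was. The array pattern differed in replicate 2: there the median of the mitotic genes was -0.22 and that of the replication genes -0.04, against -0.31 and -0.20 in replicate 3 and -0.03 and -0.01 in replicate 1. In replicate 2, 18 of 30 mitotic genes lay below the lowest wild-type array, against 13 of 42 replication genes. Whether the lists differ was not tested. In both lists Ret-deficient replicate 3 was lowest and replicate 1 closest to wild-type, in the same order.

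**Figure D4:**
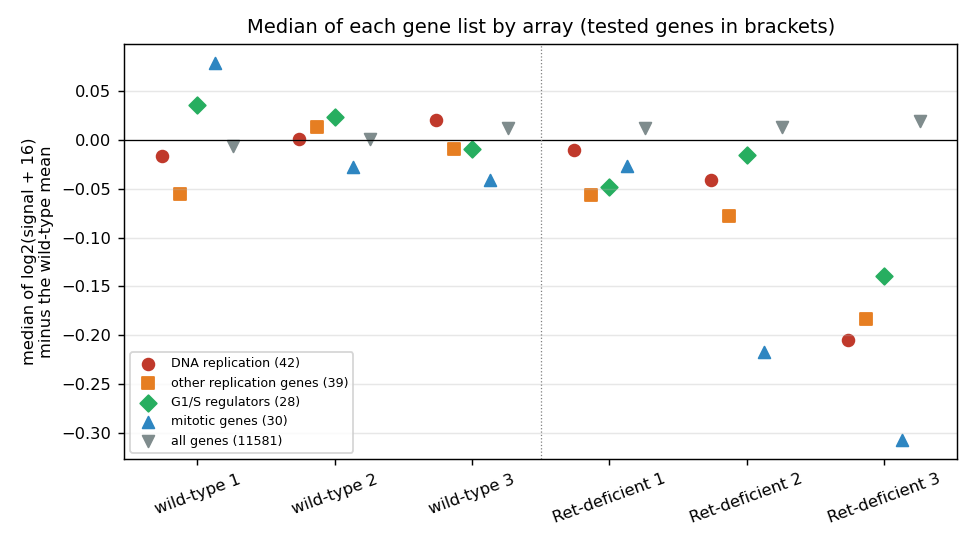
Median over each gene list of log2(signal + 16) minus the wild-type mean, by array, for the DNA replication genes, other replication genes, regulators of the entry to S phase, mitotic genes and all genes with a tested probe set. The 4 cell cycle lists sit between -0.31 and -0.14 in Ret-deficient replicate 3, where the median of all genes is 0.02.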

How the data were processed

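RNA of whole embryonic kidneys was measured on 6 Affymetrix mouse arrays, 3 per genotype, grouped by the sample titles. The deposited values are signal intensities made with MAS5, per the submitters' processing notes; the version and the scaling target were not given in the sources used here. The authors' values had the same mean, 2500, on every array after trimming 2 percent at each end. Values were used as log2(value + 16) with no further normalization, which understates fold changes of dim probe sets. Leaving out 64 control probe sets, 22519 whose mean was at or above the median were tested in R 4.3.3 with limma 3.58.1 (data.table, version 1.17.8, for input), adjusted by Benjamini-Hochberg over all of them. Symbols came from the platform annotation, updated by gene ID with RefSeq names; 34958 probe sets had 1 symbol, 932 several and 9211 none. Full values are given per role for the members with the smallest p, the largest difference and the brightest probe set, and for others chosen after their values were seen. The 12 untested member probe sets read 2.1 to 520.9, each at or below the brightest of 27 bacterial controls on some array. The members and lists were chosen with earlier results of these data known. Same-numbered samples did not deviate together (correlations 0.03, -0.04 and -0.12), and the main fit did not pair them. Since the litters were not given, these correlations cannot decide whether same-numbered samples shared one. The number of arrays limits the precision. No protein sequences were used here. Signals of different probe sets are not comparable as levels.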

Additional observations from a re-analysis of the deposited data

How the results depend on the processing

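No alternative gave a member past an adjusted p of 0.05 or 0.1, which Ret did not pass in the main fit either. With array weights the members' median was -0.062, and with probe sets averaged per gene the mitotic median was -0.20. Centring arrays on their medians gave members 0 at an unadjusted p under 0.05, 1 without overlap, a median of 0.0058 and 20 negative, and a mitotic median of -0.020. Without the brightness filter, and with the replicate block, 1 member (Cdc6) had an unadjusted p under 0.05 in place of 2. With 1 array left out that count ran from 1 to 4, the count without overlap from 4 to 12 and negative members from 24 to 37. The members' median then ran from -0.15 to -0.052 and the mitotic median from -0.27 to -0.081. The count of 12 came without Ret-deficient replicate 2, of 11 without replicate 1 and of 9 without wild-type replicate 3. No share of all genes was taken beside these counts without overlap. Signs near 0 reversed: with array weights Orc6 (-0.054), Gins1 (-0.011), Pold1 (0.033) and Fen1 (0.052); with the mean of probe sets Gins1 (-0.030) and Rfc3 (0.033); with centring Rfc3 (0.0017), Pcna (0.022), Pold1 (0.068) and Fen1 (0.064). With 1 array left out Orc6 ran from -0.12 to 0.16, Gins1 from -0.027 to 0.072, Rfc3 from -0.19 to 0.020, Pcna from -0.22 to 0.026, Pold1 from -0.12 to 0.085, Lig1 from -0.30 to 0.0047 and Fen1 from -0.10 to 0.043. The causes were not tested. Pseudocounts of 1 and 64, the brightest 30 percent, quantile normalization and an intensity trend moved none of the counts by over 1.5 times.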
